A study of Mus musculus with 14 samples.

Results

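The ubiquitin-specific protease (USP) family was examined in murine bone marrow erythroid progenitors that had been challenged or not with erythropoietin (EPO), the hormone that drives red cell formation. Members were the probe sets of the array that name a single gene whose symbol is Usp followed by a number and an optional suffix. There were 123 such probe sets for 49 genes, of 45037 probe sets tested and 18193 genes that any probe set names alone. The choice went by symbol and used no measured value, although the family was taken up with earlier results of these data known. 13 of the genes were measured by 1 probe set and 36 by several, with up to 7 for a gene, so probe sets of a gene are repeated measures of it and not replicates. 9 further probe sets with a Usp name were left out because they name a second gene (Usp17ld with Usp17lc, Usp50 with Polr2l, Usp49 with Med20) or a gene outside the family (Usp46os2, Usp6nl).

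All cells came from the marrow of wild-type C57Bl/6 female mice aged 8 to 12 weeks and were expanded in culture. Stage E1 progenitors, labelled as CFUe-like, were depleted of lineage-positive cells and selected for Kit and CD71 at day 3, and the later stage E2 cells were depleted of lineage-positive and Kit-positive cells and selected for CD71 at day 3.5 of parallel cultures. A cytokine-free period of 5.5 h preceded the challenge, which was 90 min of EPO at 4 U/mL or of no EPO. There were 14 arrays, 4 per condition at stage E1 and 3 at stage E2. The arrays are labelled as biological replicates, but the labels do not say whether each came from separate mice, and the unchallenged cells too had been starved of cytokines. Each value below is log2 expression less a constant for its probe set, so differences between groups can be read but levels cannot, and a value near 0 does not mean that the transcript was absent.

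USPs are the largest family of deubiquitinases. They are cysteine proteases that cut ubiquitin from substrate proteins or trim ubiquitin chains, and so can spare a protein from the proteasome, end a ubiquitin signal or remove the monoubiquitin mark from histones. Many act only within complexes. Usp1, Usp12 and Usp46 need the WD40 protein Wdr48, Usp22 works within the SAGA co-activator, and Usp14 sits on the proteasome. Red cell formation has a known need for this chemistry, since maturing erythroblasts remodel chromatin and clear much of their proteome. Usp12 is the member that the study itself names as induced by EPO.

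Promoter sequences are shown first for Usp12, Usp36 and Usp31, the 3 genes with a probe set that differed with EPO by over 1 on the log2 scale in both stages, as described below. They were taken from RefSeq on GRCm38.p6, in windows that run from 250 bases before a gene's start to 50 after it. 37 of the 49 genes had such a window, and Usp22, the other gene with a clear EPO difference, had none. The windows shown are the 250 bases before the start that each window uses, on the minus strand at chr5:146794957-146795206 for Usp12, at chr11:118290245-118290494 for Usp36 and at chr7:121707443-121707692 for Usp31. A stretch of 49 bases of Usp17la, on the plus strand at chr7:104856822-104856870, is added because the Usp17l genes are known as cytokine-inducible members. Capitals mark a match to CACGTG (Usp31) or to TTCNNNGAA (Usp17la), and all are written 5′ to 3′.
Usp12: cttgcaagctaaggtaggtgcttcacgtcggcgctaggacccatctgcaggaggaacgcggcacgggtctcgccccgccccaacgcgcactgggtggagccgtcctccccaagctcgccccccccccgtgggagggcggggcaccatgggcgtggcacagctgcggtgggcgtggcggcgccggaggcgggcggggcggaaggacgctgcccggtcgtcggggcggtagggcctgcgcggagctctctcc
Usp36: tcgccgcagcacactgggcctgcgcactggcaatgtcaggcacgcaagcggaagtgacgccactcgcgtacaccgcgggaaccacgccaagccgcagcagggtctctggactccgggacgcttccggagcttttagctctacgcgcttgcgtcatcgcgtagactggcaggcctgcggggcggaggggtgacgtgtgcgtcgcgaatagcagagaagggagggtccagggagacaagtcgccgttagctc
Usp31: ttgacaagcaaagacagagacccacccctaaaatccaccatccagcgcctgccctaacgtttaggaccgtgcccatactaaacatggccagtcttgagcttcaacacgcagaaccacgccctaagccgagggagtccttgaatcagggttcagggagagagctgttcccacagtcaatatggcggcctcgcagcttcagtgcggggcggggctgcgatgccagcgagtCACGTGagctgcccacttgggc
Usp17la: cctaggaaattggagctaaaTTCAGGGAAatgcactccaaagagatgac

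TTCNNNGAA is the consensus of STAT5, the transcription factor activated by the EPO receptor, and CACGTG is the E-box core bound by Myc, searched after the sequences had been read. Both were searched over the 300 bases of each window, and since both read the same on the opposite strand, 1 pass covers both strands. TTCNNNGAA was found in 4 of the 37 windows (10.8%: Usp17la, Usp26, Usp27x and Usp50), beside 8.3% of the 32851 windows of all genes. None of the 3 EPO-responsive genes shown holds it there. CACGTG was found in 4 of 37 (10.8%: Usp4, Usp16, Usp31 and Usp32), beside 7.15% of all. In Usp31 it lies 22 bases before the start that the window uses, and in Usp17la the TTCNNNGAA match lies 174 bases before that gene's start. RefSeq gene positions place the outer ends of Usp31 (chr7:121707461) and Usp36 (chr11:118290260) inside the stretches shown. By those ends, the last bases of both stretches lie within the gene and the Usp31 match spans the gene's end. The Usp12 and Usp36 stretches are rich in G and C (74.8% and 65.6%), with 30 and 28 CG pairs, and that of Usp31 less so (58.4%, with 13), where the median window of all genes has 52.4% and 6. These matches describe letters only. The Usp17la probe set, 1420773_at, lay between -0.02 and 0.03 on all 14 arrays.

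In the unpaired test, EPO raised 2 USP probe sets in stage E1 and lowered none. With the arrays paired by replicate number none passed, as described below. The 2 were 1434483_at of Usp12 and 1456094_at of Usp36, a nucleolar deubiquitinase known to stabilise Myc. Both were more than 3-fold higher with EPO. The 2 of 123 are 1.63%, where 0.804% of all probe sets were higher and 0.36% lower at an adjusted p under 0.05 (limma, two-sided, Benjamini-Hochberg over all 45037). At an unadjusted p under 0.05, 12 members were higher and 9 lower, and the share of all probe sets at that threshold was not computed. The median difference of the members was -0.000174 on the log2 scale and that of all probe sets -0.00466. In these bulk samples, a change in the make-up of the cells and a change in RNA per cell cannot be told apart. The mean of 4 megakaryocyte and platelet probe sets was lower with EPO in stage E1 without overlap (-0.63 to -0.15 without and -1.01 to -0.69 with), and its part in the EPO changes was not tested.

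Usp12 (1434483_at) read -0.93, -1.72, -0.42 and -0.82 on the unchallenged E1 arrays and 0.59, 0.68, 0.78 and 0.80 on the E1 arrays with EPO. The groups were apart, with the EPO arrays close together and the unchallenged ones spread. The difference was 1.69 (SE 0.26), or 3.22-fold, with a limma adjusted p of 0.0385. In stage E2 it read -0.76, -0.47 and -0.65 without EPO and 0.95, 0.89 and 0.69 with it, again with no overlap. There the difference was 1.47 (SE 0.10), or 2.77-fold, with a limma adjusted p of 0.00619. No difference between the stages in this change was detectable (interaction -0.22, 95% interval -0.94 to 0.50), but with the arrays quantile normalized the interaction was 1.66, with a limma adjusted p of 0.0102, so its direction depends on the scaling. No other USP probe set passed in both stages. The other 2 probe sets of Usp12 did not show the rise. Fitted over gene means, the mean of its 3 probe sets passed in E1 (0.68, limma adjusted p 0.0449) and not in E2 (0.64, limma adjusted p 0.10). 1425805_a_at lay between -0.02 and 0.02 on every array but 1 (0.36, E2 with EPO, replicate 2), and 1427478_at differed by 0.34 (SE 0.23) in E1 and 0.32 (SE 0.34) in E2. Where a probe set barely moves on any array, an absence of change cannot be told from an absence of signal.

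Usp36 was read by 3 probe sets, and all were higher with EPO in stage E1 by value. 1456094_at read 0.01, -0.04, 0.37 and 0.70 without EPO and 1.43, 2.13, 2.38 and 1.93 with it, and passed (1.71, SE 0.25, 3.26-fold, limma adjusted p 0.0313). 1455237_at read -0.12, -0.37, 1.41 and 1.19 against 3.84, 1.44, 3.90 and 4.07. The groups did not overlap, but EPO replicate 2 lay just above the unchallenged arrays and far below its own group, and the difference of 2.79 (SE 0.73) did not pass (limma adjusted p 0.198). Without that array it was 3.41, with a limma adjusted p of 0.0534. 1458311_at differed by 1.03 (SE 0.33), with overlapping groups, and did not pass. In stage E2 only 1455237_at rose, from -0.42, 0.07 and -0.16 to 1.38, 1.40 and 1.31, which is 1.53 (SE 0.13), 2.89-fold, with a limma adjusted p of 0.0101. The other 2 were flat there: 1456094_at lay between -0.08 and -0.04 on the 6 E2 arrays, and 1458311_at between -0.11 and -0.01. Probe sets of this gene thus gave different pictures of stage E2.

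**Figure D1:**
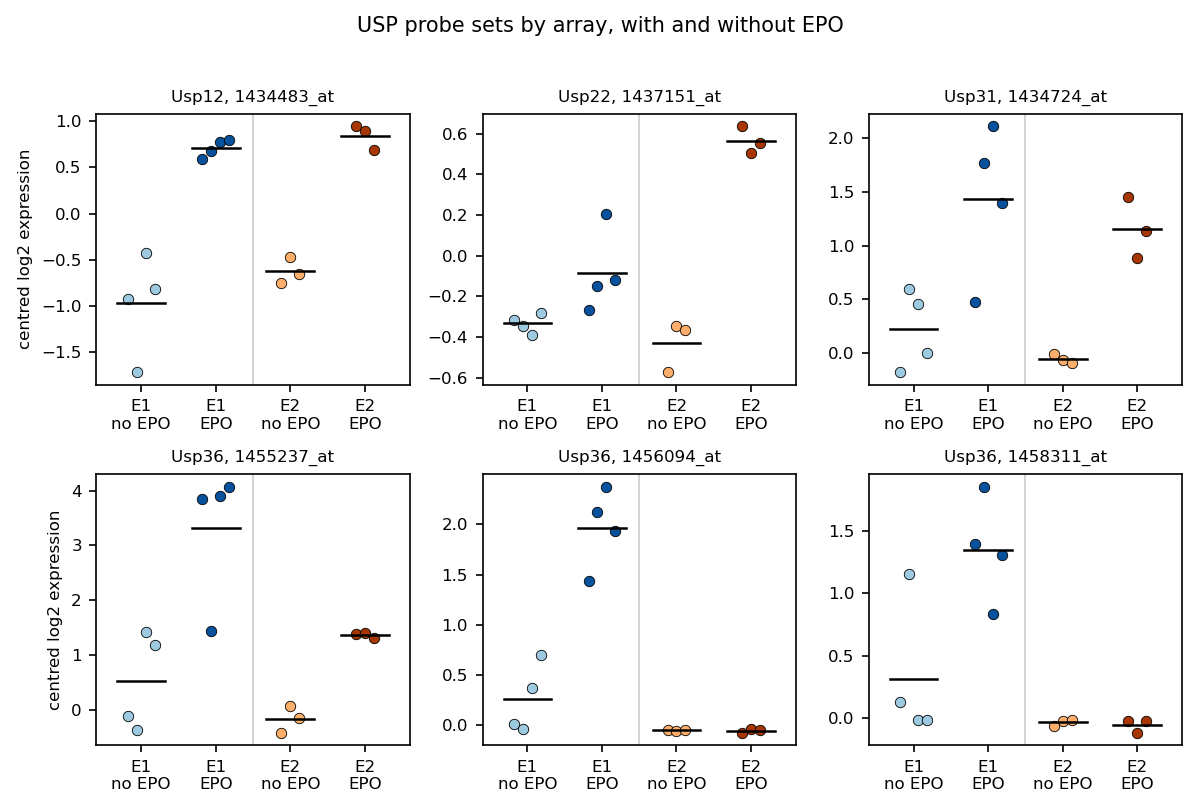
Centred log2 expression of the 6 USP probe sets named in each panel, by array, for stage E1 and E2 cells without and with EPO. Points are arrays (4 per group in E1, 3 in E2) and lines are group means. Usp12 is higher with EPO in both stages, Usp22 and Usp31 clearly so in stage E2, and the 3 Usp36 probe sets part company in stage E2, where 2 of them stay near 0.

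Both stage E1 calls are fragile. The replicate numbers of stage E1 behaved as pairs, and with the number as a block neither passed (limma adjusted p 0.142 for Usp12 and 0.116 for Usp36), so that 0 members were higher and 0 lower. Leaving out 1 array at a time, Usp12 lost its call without any of the 4 EPO arrays or unchallenged replicates 1 and 4 (adjusted p 0.0155 to 0.132 over the 8), and Usp36 without EPO replicates 2, 3 and 4 or unchallenged replicates 1, 2 and 3 (0.024 to 0.0958).

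Among the members that did not pass in stage E1, Usp10 (1448230_at), a cytosolic enzyme that acts on p53 and binds G3bp1, read 0.33, -0.01, 0.24 and 0.49 without EPO and 0.58, 1.0, 0.80 and 0.98 with it (0.57, SE 0.13, limma adjusted p 0.149). Usp32 (1459857_at) read -0.17 to -0.48 without EPO and -0.77 to -1.72 with it (-0.98, limma adjusted p 0.10). Usp34 (1434392_at), a very large member that acts on Axin in Wnt signalling, differed by -0.33 (limma adjusted p 0.155). In these 3 the groups did not overlap. Fitted over gene means, Usp32 (-0.62, limma adjusted p 0.0368) and Usp34 (-0.20, limma adjusted p 0.0378) passed as lower with EPO in stage E1. The largest fall by value was in Usp18 (1418191_at), the interferon-induced enzyme that removes the ubiquitin-like protein Isg15, and was picked out after its values were seen. It read -1.02, 1.76, 1.79 and 1.84 without EPO and -2.36, -0.16, -0.12 and -1.45 with it. Unchallenged replicate 1 stood far below the other 3, the groups overlapped, and the difference of -2.12 (SE 0.83) did not pass (limma adjusted p 0.503). In stage E2 the same probe set differed by -0.71 (SE 0.16, limma adjusted p 0.104), with no overlap.

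In stage E2, EPO raised 5 USP probe sets and lowered 4, each of a different gene. Usp36, Usp12, Usp31 and Usp22 rose by between 1.99-fold and 2.89-fold, and Usp14 by 1.33-fold. Usp45, Usp32, Usp9x and Usp46 fell by smaller amounts. The 5 are 4.07% of the members and the 4 are 3.25%, where 2.54% of all probe sets were higher and 2.08% lower. Among probe sets that name 1 gene, 2.87% were higher and 2.22% lower. At an unadjusted p under 0.05, 15 members were higher and 20 lower, again with no share of all probe sets to set beside them. The median difference was -0.0091 beside -0.00488 for all. With the arrays quantile normalized the split was 6 higher and 3 lower. Means of some marker lists did not overlap between the E2 groups either. The 8 erythroid progenitor probe sets ran from 0.10 to 0.30 without EPO and -0.15 to 0.06 with it, and the 4 megakaryocyte ones from 1.81 to 1.95 and 1.72 to 1.80. The 6 B cell ones ran from -0.12 to -0.06 and stood at -0.05 with EPO. The Gapdh control, as its 3′ less its 5′ value, ran from -0.16 to -0.11 without EPO and from -0.07 to 0.35 with it. The part of these in the results was not tested.

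Usp22 (1437151_at), the SAGA subunit that removes ubiquitin from histone H2B, read -0.57, -0.35 and -0.37 without EPO in stage E2 and 0.64, 0.50 and 0.55 with it. The groups were far apart, and the difference was 0.99 (SE 0.08, limma adjusted p 0.00721). Its second probe set, 1456043_at, differed by 0.71 (SE 0.19), did not overlap and did not pass (limma adjusted p 0.147). Usp31 (1434724_at) read -0.01, -0.06 and -0.09 without EPO and 1.46, 0.88 and 1.14 with it (1.21, SE 0.15, limma adjusted p 0.0243). In stage E1 it differed by the same 1.21 (SE 0.37), from between -0.18 and 0.60 to between 0.48 and 2.11, with overlap at 1 array with EPO, replicate 1, and did not pass (limma adjusted p 0.301). Its other 3 probe sets differed by no more than 0.14 in stage E2. Usp14 (1439201_at), which trims ubiquitin chains at the proteasome, read -0.29, -0.28 and -0.24 without EPO and 0.19, 0.05 and 0.18 with it (0.41, SE 0.05, limma adjusted p 0.0175).

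The 4 that fell did so by 1.47-fold at most, and in none did the groups overlap. Usp45 (1430708_a_at), a nuclear enzyme that acts on the repair nuclease Ercc1, read 0.84, 0.75 and 0.76 without EPO and 0.31, 0.22 and 0.15 with it (-0.56, SE 0.05, 1.47-fold, limma adjusted p 0.0111). Usp32 (1430403_at) read 0.39, 0.55 and 0.40 against -0.08, 0.04 and -0.04 (-0.47, SE 0.06, limma adjusted p 0.023). Usp9x (1428194_at), an X-linked enzyme whose substrates include Mcl1, read 0.45, 0.49 and 0.58 against 0.22, 0.14 and 0.06 (-0.37, SE 0.05, limma adjusted p 0.0358). Usp46 (1435325_at), the close relative of Usp12, read 0.14, 0.16 and 0.08 against -0.12, -0.04 and -0.11 (-0.22, SE 0.03, limma adjusted p 0.0397). Usp12 and Usp46, which share the partner Wdr48, thus moved in opposite directions in stage E2, and Usp1, the third partner of Wdr48, differed by -0.53 at 1423674_at (SE 0.18, limma adjusted p 0.242) and by -0.01 and 0.04 at its others.

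Usp12, Usp22, Usp36 and Usp45 kept their calls when any 1 of the 6 arrays was left out (limma adjusted p 0.0123 to 0.049). Usp31 did not pass without any of the unchallenged arrays or without EPO replicate 3 (up to 0.0997). Usp14 passed only without EPO replicate 2 and Usp32 only without unchallenged replicate 2 (up to 0.0811 and 0.0827), and Usp9x and Usp46 lost their calls whichever array was left out (0.056 to 0.123 and 0.0525 to 0.126).

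**Figure D2:**
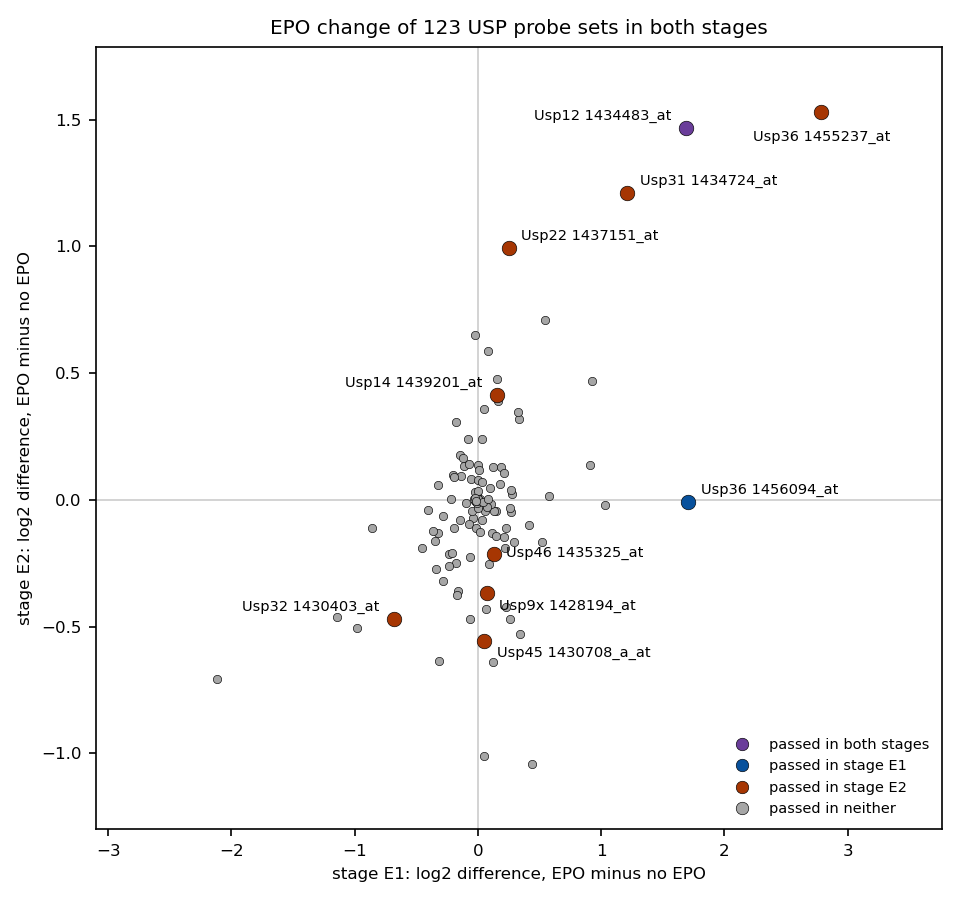
EPO change of the 123 USP probe sets in stage E1 (horizontal axis) and stage E2 (vertical axis), each as the log2 difference of EPO minus no EPO, with the probe sets that passed coloured and named. Usp12, Usp36 (1455237_at) and Usp31 lie above 1 on both axes, whereas Usp36 (1456094_at) lies at 1.71 and -0.01 and most members lie near 0.

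Across the stages, 68 of the 123 members (55.3%) had the same sign of EPO difference, beside 60.7% of all probe sets. Past a difference of 0.5 in either direction lay 12.2% of members in each stage, beside 9.26% (E1) and 7.37% (E2) of all. In both stages and the same direction, 6 members did, a count not made over all probe sets. Tested as the stage by EPO interaction over all 14 arrays, 1 member was higher and 1 lower (0.813% each), beside 0.18% and 0.235% of all probe sets. At an unadjusted p under 0.05 there were 3 and 8, with no share of all probe sets computed. The EPO change of Usp22 (1437151_at) was larger in stage E2 than in stage E1, where it read -0.28 to -0.39 without EPO and -0.27 to 0.20 with it. That is 0.25 (SE 0.10) in E1 and 0.99 in E2, a difference of 0.74 (SE 0.14, limma adjusted p 0.0477). For the other probe set of Usp22 the interaction was 0.16 and did not pass. Nor did the mean of the 2, fitted over gene means (0.45, limma adjusted p 0.971). The EPO change of Usp36 (1456094_at) was smaller in stage E2, at -0.01 against 1.71 (-1.71, SE 0.30, limma adjusted p 0.0388). For Usp36 only 1456094_at passed. 1455237_at rose in stage E2 and its own interaction did not pass (-1.26, 95% interval -3.21 to 0.70). Nor did that of 1458311_at (-1.05, limma adjusted p 0.52). Fitted over gene means, the mean of the 3 passed as lower (-1.34, limma adjusted p 0.0379). With the replicate number as a block neither 1437151_at of Usp22 nor 1456094_at of Usp36 passed (limma adjusted p 0.218 and 0.114). Each of these calls was lost in 12 of the 14 fits that left out 1 array (limma adjusted p 0.00462 to 0.136 for Usp22 and 0.00921 to 0.104 for Usp36). Centring each array on its median left 0 higher and 1 lower, and quantile normalization gave 3 and 2.

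Between the stages, without EPO, 25 probe sets of 14 genes were higher in stage E2 and 9 of 6 genes lower. The largest rises were those of Usp25, Usp7, Usp9x, Usp15 and Usp1, and the clearest falls those of Usp34 and Usp48. The 25 are 20.3% of the members, where 10.1% of all probe sets and 11.6% of those naming 1 gene were higher. The 9 are 7.32%, where 10.8% and 11.6% were lower. With EPO, 21 probe sets of 12 genes were higher (17.1%, beside 10.3% of all) and 16 of 10 genes lower (13%, beside 12%). Members were also less often flat than other probe sets (25 of 123, or 20.3%, with an SD under 0.1 over the 14 arrays, beside 45.5% of all). Among the probe sets that were not flat, 25.5% of 98 members were higher and 9.18% lower without EPO, beside 18.5% and 17.9% of 24544. With EPO these were 21.4% and 16.3%, beside 18.8% and 19.8%. That SD spans both stages, so a stage difference itself helps a probe set to count as not flat. These shares are thus no separate check. No difference from other probe sets was tested. The median stage difference was -0.00376 without EPO, beside -0.0273 for all.

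The stages were isolated differently, and other cell type markers moved with them. Kit, which was used in the selection, differed by -3.98 and -2.69 at its 2 probe sets without EPO, and Gata1, Epor and Tfrc, which encodes the selected CD71, were higher in stage E2. Of the 6 measured myeloid genes, 5 (Csf1r, Elane, Mpo, S100a8 and S100a9) were lower in stage E2, and the mean of the list's 8 probe sets ran from 4.30 to 4.88 on the E1 arrays and from -0.13 to -0.05 on the E2 arrays. Mast cell genes Cpa3 and Ms4a2 were lower too, and all 4 megakaryocyte genes (Gp9, Itga2b, Pf4 and Ppbp) were higher. The B cell list was lower at Ptprc and no T cell probe set passed. Of the later erythroid genes, Alas2 and Slc4a1 were higher and Hba-a2 lower without EPO (-2.22), and the mean of their list's 8 probe sets ran from -2.32 to -1.57 in E1 and from -0.24 to 0.08 in E2. Whether a list is at 0 cannot be read from centred values. The part of these other cells in the stage differences of the USPs was not tested. No probe set of any of these marker lists passed in either EPO comparison.

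Of the 50 members that passed in either stage comparison, 21 (42%) passed in both in the same direction and none in opposite ones, beside 6950 of 12505 (55.6%) and 19 over all probe sets. 14 probe sets of 9 genes were higher in both (Usp3, Usp4, Usp7, Usp9x, Usp19, Usp25, Usp32, Usp38 and Usp45) and 7 of 5 genes lower in both (Usp16, Usp34, Usp39, Usp47 and Usp48). 13 passed only without EPO and 16 only with it. Each comparison uses its own arrays, but both come from 1 fit. Leaving out 1 of the 14 arrays at a time, 9 of the 34 calls without EPO and 12 of the 37 with it were lost in at least 1 fit.

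Usp25 (1448939_at), the paralog of Usp28, had the largest rise among the members in both stage comparisons. It read -1.96, -1.84, -1.43 and -1.32 in stage E1 without EPO and 0.33, 0.04 and 0.28 in stage E2, and -2.05, -1.40, -1.46 and -1.91 against -0.16, -0.04 and 0.18 with EPO. All E2 arrays lay above all E1 arrays. The difference was 1.86 (SE 0.20, 3.63-fold, limma adjusted p 3.87e-05) without EPO and 1.70 (SE 0.20, 3.25-fold, limma adjusted p 6.78e-05) with it. Its second probe set, 1445861_at, passed with EPO (1.28, SE 0.41), a call lost in 9 of 14 fits that left out 1 array (limma adjusted p 0.0179 to 0.138), and did not pass without (0.60). Usp28, a nuclear enzyme that acts on Myc, did not pass in any comparison.

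All 3 probe sets of Usp32, a membrane-associated member, were higher in stage E2 in both comparisons. 1436159_at read -0.82, -0.59, -0.89 and -0.72 in stage E1 against 0.03, 0.06 and 0.07 in stage E2 without EPO, a tight E2 group apart from E1 (0.81, SE 0.09, 1.75-fold, limma adjusted p 7.93e-05). With EPO it differed by 0.89 (SE 0.09). 1430403_at differed by 1.21 and 1.42, and 1459857_at by 0.63 and 1.11, without and with EPO. The call of 1459857_at without EPO was lost in 10 of 14 fits that left out 1 array (limma adjusted p 0.0138 to 0.131). Usp9x (1450037_at) was higher by 1.52 (SE 0.26) without EPO, from between -1.28 and -0.36 to between 0.36 and 0.96, and by 1.28 (SE 0.26) with it. Of the 7 Usp9x probe sets, 1 passed without EPO and 2 with it, and the lowest differed by 0.002 and -0.27. The mean of the 7 passed in both (0.64 and 0.54, limma adjusted p 0.0198 and 0.0429, fitted over gene means). The other member of the sex-linked pair, Usp9y, lay between -0.04 and 0.10 in these female cells.

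Of 22 probe sets for 8 enzymes of histone ubiquitin, 9 (40.9%) were higher in stage E2 without EPO and 2 (9.09%) lower. Over all probe sets 10.1% were higher and 10.8% lower. The 9 were of Usp3, Usp21 and Usp7 (5 of them), and the 2 of Usp16 and Usp7. No probe set of Usp22, Usp27x, Usp44 or Usp49 passed in that comparison. Usp3, which acts on histone H2A, was higher at 3 of its 5 probe sets by 0.69 to 0.71. 1425022_at read -0.70, -0.43, -0.65 and -0.44 in stage E1 against 0.14, 0.09 and 0.26 in stage E2 (0.71, SE 0.11, limma adjusted p 0.000628), and with EPO it differed by 0.78 (SE 0.11). Usp21, another H2A enzyme, was higher by 0.90 (SE 0.21, limma adjusted p 0.0108) without EPO, a call lost without E2 replicate 2 (limma adjusted p 0.0561). Usp16, which removes ubiquitin from H2A in mitosis, went the other way, at 1431951_a_at (-0.52, SE 0.14, limma adjusted p 0.0219 without EPO and -0.50, SE 0.14, 0.0246 with it). That call was lost without E1 replicate 3, E2 replicate 1 or E2 replicate 3 among the unchallenged arrays (up to 0.0899). With EPO, Usp22 was also higher in stage E2 (0.65, SE 0.10), which it was not without EPO (-0.10).

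Usp7, which acts on Mdm2 and p53 as well as on histone H2B, was read by 7 probe sets that disagreed. Without EPO, 5 were higher in stage E2 by 0.46 to 1.67, and 1437118_at, the most changed of them, read -1.16, -0.45, -0.44 and -0.96 in stage E1 against 1.11, 0.84 and 0.80 in stage E2. 1419921_s_at was lower by 2.44 (SE 0.59, limma adjusted p 0.0117) and read 3.04, 1.02, 1.35 and 0.66 against -0.60, -1.07 and -1.11. An s suffix in a probe set's name marks probes shared by several transcripts. 1419920_s_at has it too and was among those higher without EPO (limma adjusted p 0.000737). Whether shared probes bear on the disagreement was not tested. With EPO, 2 of the 7 were higher, and 1419921_s_at differed by -1.70 and did not pass. The mean of the 7 was higher without EPO by 0.39 (limma adjusted p 0.005, fitted over gene means).

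Opposite calls within a gene were also seen without EPO in Usp48 and Usp39. Usp48, a nuclear enzyme, was lower at 1424056_at (0.66, 0.84, 1.18 and 0.91 in stage E1 against -0.16, -0.00101 and -0.17 in stage E2, -1.01, SE 0.15, limma adjusted p 0.000617) and at 1419278_at (-0.64, SE 0.09). 1419277_at was higher by 0.54 (SE 0.17, limma adjusted p 0.0432), a call lost in 12 of 14 fits that left out 1 array (up to 0.16). Usp39, a spliceosome protein that lacks protease activity, was lower at 1437007_x_at (-1.01, SE 0.22) and higher at 1460209_at (0.27, SE 0.07), the latter not without E2 replicate 3 (limma adjusted p 0.0626). With EPO the falls in Usp48 and in 1437007_x_at of Usp39 passed again and the rises did not. Which probe set of these genes is the better reading cannot be told from centred values.

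**Figure D3:**
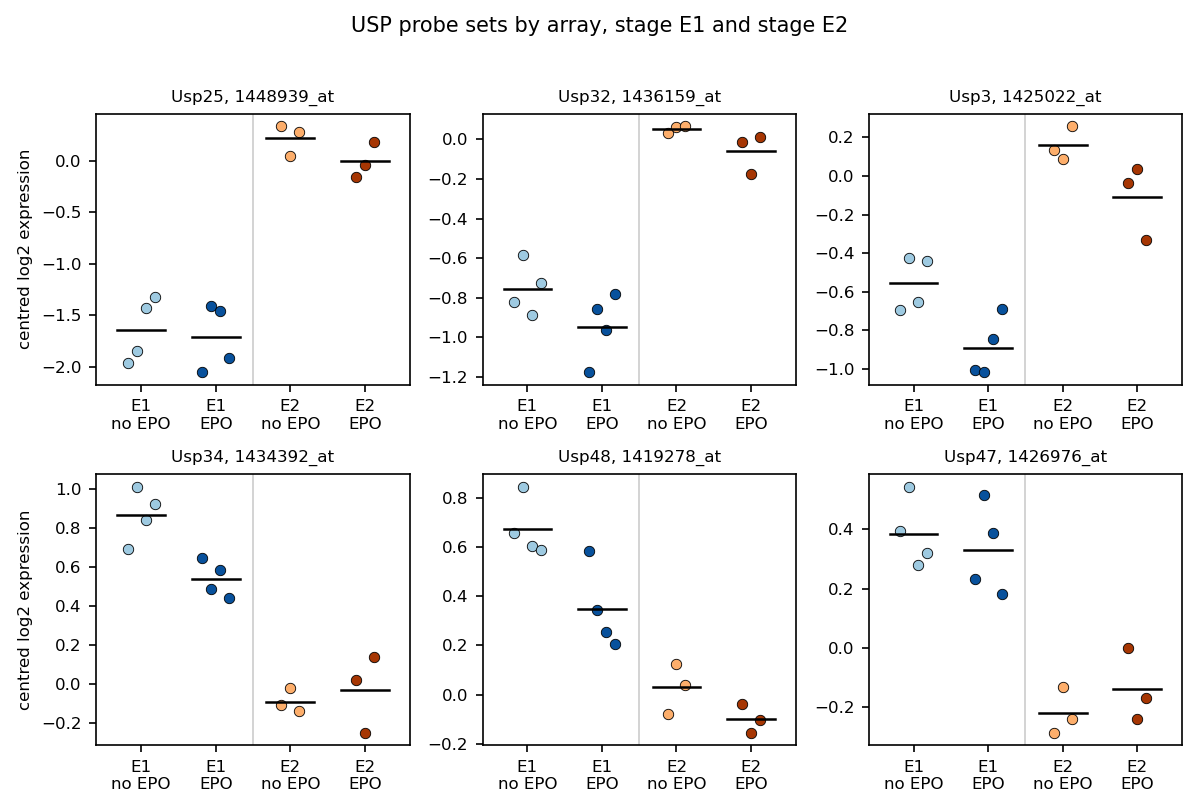
Centred log2 expression of 6 USP probe sets that differed between the stages in both comparisons, by array, in stage E1 and stage E2 without and with EPO. Points are arrays and lines are group means. Usp25, Usp32 and Usp3 are higher and Usp34, Usp48 and Usp47 lower on the E2 arrays, with no overlap between stages in either condition.

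The fall with the smallest p without EPO was that of Usp34. 1434392_at read 0.69, 1.01, 0.84 and 0.92 in stage E1 against -0.11, -0.02 and -0.14 in stage E2 without EPO (-0.96, SE 0.10, 1.94-fold, limma adjusted p 2.6e-05). With EPO it differed by -0.57 (SE 0.10), and 1434393_at differed by -0.66 and -0.86. Usp47, which acts in DNA repair on polymerase beta, was lower at 1426976_at, with differences of -0.60 (SE 0.09, limma adjusted p 0.000553) without EPO and -0.47 (SE 0.09) with it. On the unchallenged arrays it read 0.39, 0.54, 0.28 and 0.32 in E1 and -0.28, -0.13 and -0.24 in E2, so the stages were apart.

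Among the other members, Usp1, which with Wdr48 acts on Fancd2 and Pcna in DNA repair, was higher at 1423674_at without EPO. It read -0.53, -0.35, -0.53 and -0.22 in stage E1 against 1.15, 0.86 and 0.59 in stage E2, well apart (1.28, SE 0.17, 2.42-fold, limma adjusted p 0.000278). With EPO it differed by 0.40 and did not pass, and the change in that difference, the interaction, did not pass either (-0.87, SE 0.25, limma adjusted p 0.259). The related Usp4 and Usp15 were higher, Usp4 in both comparisons (0.42 and 0.45) and Usp15 at 2 of its 6 probe sets without EPO (1.38 and 1.09). Usp15 1436891_at lost its call without E2 replicate 1 (limma adjusted p 0.0873) and Usp4 without E2 replicates 2 or 3 (up to 0.073). Usp19, anchored in the endoplasmic reticulum, was higher at 2 of 4 probe sets in both comparisons (0.46 to 0.73).

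In the comparison with EPO, Usp36 was lower in stage E2 than in stage E1 at all 3 probe sets. 1456094_at differed by -2.02 (SE 0.21, 4.07-fold, limma adjusted p 3.4e-05), 1458311_at by -1.40 (SE 0.28) and 1455237_at by -1.95 (SE 0.63, limma adjusted p 0.046), the last a call lost in 10 of 14 fits that left out 1 array (up to 0.121). Without EPO the 3 differed by -0.31 to -0.69 and did not pass. Usp10 was lower too (-0.88, SE 0.13, limma adjusted p 0.000522), as were Usp24, Usp40 and both probe sets of Usp46. Of these, Usp24 lost its call in 10 of the 14 fits (up to 0.129), Usp46 1436518_at in 9 (up to 0.121) and Usp40 in 4 (up to 0.0997). Usp14 was higher at 1416208_at and 1437714_x_at (0.41 and 0.90), and Usp37, which acts on cyclin A, at 1434242_at (1.02, SE 0.27, limma adjusted p 0.0189). That call of Usp37 was lost without E2 replicates 1 or 3 with EPO (up to 0.0742). The gene's other probe set differed by -0.70 and did not pass, and the mean of both was 0.16.

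**Figure D4:**
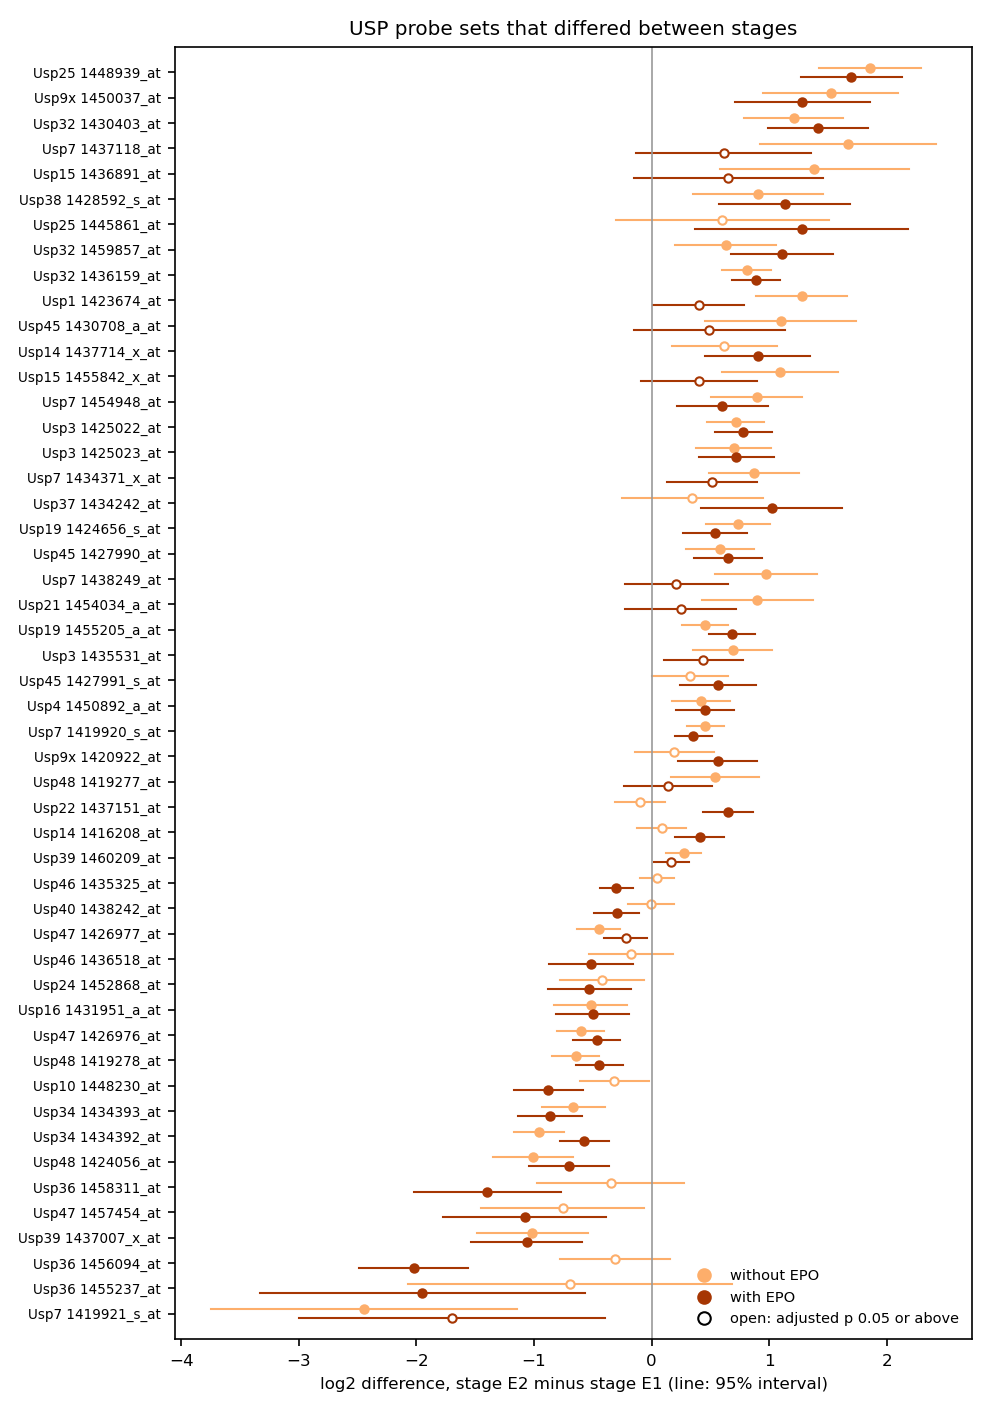
Log2 difference of stage E2 minus stage E1 for the 50 USP probe sets that passed in either stage comparison, without EPO (light) and with EPO (dark), with 95% intervals from limma. Filled points passed and open points did not. Usp25 1448939_at stands at the top and the Usp36 probe sets with EPO and Usp7 1419921_s_at at the bottom, and probe sets of Usp7, Usp39 and Usp48 lie on both sides of 0.

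22 of the 49 genes passed in none of the 5 comparisons, at any probe set (Usp2, Usp5, Usp8, Usp9y, Usp11, Usp13, Usp17la, Usp18, Usp20, Usp26, Usp27x, Usp28, Usp29, Usp30, Usp33, Usp42, Usp43, Usp44, Usp49, Usp50, Usp53 and Usp54). They hold the p53 enzymes Usp2 and Usp42, the free-chain enzyme Usp5, the endosomal enzyme Usp8, the mitochondrial Usp30 and the Vhl-binding pair Usp20 and Usp33. Not all of these were flat. Fitted over gene means, where fewer tests share the adjustment, Usp53 passed with EPO in stage E2 (0.17, limma adjusted p 0.00649), and Usp5, with its 1 probe set, in both stage comparisons (0.51 in each, limma adjusted p 0.046 and 0.042). Usp28 differed with EPO in stage E2 by 0.48 (SE 0.10, limma adjusted p 0.0764), and Usp8 (1446807_at) by -1.04 (95% interval -2.04 to -0.05, limma adjusted p 0.278). In all, 54 probe sets of 27 genes passed in at least 1 comparison and 69 in none. That tally was not made over all probe sets, so it is no result about the family. For the stage comparisons alone, 50 of the 123 members passed in either, beside 12505 of all 45037 probe sets. The spread between arrays was wider in stage E1, with a median SD of the members of 0.173 without and 0.242 with EPO, than in stage E2, with 0.087 and 0.117.

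The genes that work with USPs were described from lists of the same pathway. Of 50 probe sets for 15 cofactor genes, none passed with EPO in stage E1 and 1 in stage E2, that of Atxn7l3b, a relative of the SAGA subunit Atxn7l3 (-0.74, SE 0.10, limma adjusted p 0.0296). Between the stages 7 (14%) were higher and 4 (8%) lower without EPO, close to the 10.1% and 10.8% of all probe sets, among them the SAGA genes Atxn7l1 (2.08 at its most changed probe set) and Eny2 (-1.5), and 9 (18%) and 7 (14%) with EPO, beside 10.3% and 12%. The medians with EPO were 0.11 in E1 and 0.02 in E2. Wdr48, the partner of Usp12, passed in none of them.

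Transcripts of several known USP substrates rose with EPO, in a list drawn up with earlier results of these data known. The study itself names Fbxw7 as induced by EPO, so the shares below are no test of the list. USPs act on the proteins, which were not measured here. Of 50 probe sets for 17 genes, 3 (6%, beside 0.804% of all) rose in stage E1, those of Myc (2.59, SE 0.26, 6.02-fold), of the ligase subunit Fbxw7 (1.32, SE 0.16) that marks Myc for degradation, and of Mdm4 (0.71, SE 0.10), a p53 inhibitor. In stage E2, 11 (22%, beside 2.54%) rose and 1 (2%, beside 2.08%) fell, with 6 of the 11 from 1 gene. The 11 included Myc (3.35, SE 0.06, 10.2-fold, limma adjusted p 0.000369), Fbxw7 at 2 probe sets (1.46 and 1.5) and the survival protein Mcl1 at 6 (0.67 to 1.04), and Rnf168, a ligase of histone H2A, fell by 1.14 on the log2 scale. The medians were -0.00159 and 0.04. Of these, Myc is acted on by Usp36 and Usp28, Mcl1 by Usp9x and Mdm4 by Usp7 and Usp2. Between the stages 6 (12%) were higher and 10 (20%) lower without EPO, beside 10.1% and 10.8% of all probe sets. With EPO these were 15 (30%) and 7 (14%), beside 10.3% and 12%.

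The list of other deubiquitinases held 33 measured genes, with 79 probe sets. Among them was Uspl1, a USP-like protease that acts on SUMO rather than ubiquitin. With EPO in stage E1, 1 probe set was higher (Uspl1, 0.65, SE 0.10) and 1 lower (Tnfaip3, the A20 inhibitor of NF-kB, -1.55, SE 0.25, limma adjusted p 0.0441). In stage E2, 2 were higher (Uspl1 again, 0.63, and Otud7b, 0.17) and 8 (10.1%, beside 2.08% of all) lower, of Mindy1, Otub2, Otud1 and Vcpip1 (-0.38 to -0.64). The medians were -0.04 and -0.00693. Between the stages 27 (34.2%) were higher and 8 (10.1%) lower without EPO, beside 10.1% and 10.8% of all probe sets, and 25 (31.6%) and 8 with it, beside 10.3% and 12%. The changes were led by Otub2 (4.97), Yod1 (2.28) and Otud7b (1.58) among the higher and Otud6b (-1.40) among the lower. The medians there were 0.14 and 0.17, above those of the USPs, but no difference between the families was tested.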

How the data were processed

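Total RNA of 14 samples was hybridised to Affymetrix mouse arrays. The authors used GCOS for scanning and GeneSpring for GC-RMA. What they deposited is log2 intensity less a constant for each probe set, its median over 20 arrays (35163 of 45101 probe sets hold a pair of values of equal size above and below 0, within 2e-06). The base of 2 is inferred, scanner files were not used here, and a filter on low levels could not be derived. 64 control probe sets were left out.

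A two-sided moderated test (limma 3.58.1 under R 4.3.3) was run on 45037 probe sets. P-values were adjusted over all of them by Benjamini-Hochberg, and a probe set passed below 0.05. EPO comparisons were fitted per stage, and the interaction and stage comparisons in 1 fit of the 14 arrays. The steps were tested on simulated data. Where each simulated group kept its own spread, as groups differ here, false calls made up more of the calls than the adjusted threshold allows, so calls near it are less sure than their adjusted p reads. Replicate numbers were taken to pair the E1 arrays, from the labels' numbers and their deviations from group means (correlations 0.152 to 0.195). They did not pair the others (-0.126 to 0.0586). The labels give day 3 for E1 and the study's methods day 3.5. The number of arrays limits the precision.

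Members, lists and promoter motifs were chosen with earlier results of these data known. Named genes were every member past the test in any comparison, the 8 with the smallest p in each, Usp12, other probe sets of those genes, and up to 4 passing members per other list, direction and comparison. The alternatives tried were quantile normalization, centring each array on its median, the replicate block, array weights, the 22519 probe sets of larger SD, a joint fit, the methods' t-test, gene means, and each array left out.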

Additional observations from a re-analysis of the deposited data

Results flagged for a closer look

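Of 196 groups of 4 E1 arrays, for the 98 members with an SD of at least 0.1, 21 held an array far from the other 3 (29 of 246 over all members), where chance alone would give about 1 in 20. Usp36 1455237_at read 1.44 on the E1 array with EPO, replicate 2, against 3.84 to 4.07 on the others, and bears on a named result, since the difference without it was 3.41 in place of 2.79. Usp18 1418191_at read -1.02 on unchallenged replicate 1, against 1.76 to 1.84. Usp22 1456043_at read 2.13 on EPO replicate 4, against -0.11 to 0.14, and -0.136 on unchallenged replicate 4, against -0.01 to 0.01.

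On the other E1 arrays with EPO, Usp12 1427478_at read 0.883 on replicate 3 (others -0.10 to 0.00429), Usp20 1442943_at 0.835 on replicate 4 (none of the others above 0.01), Usp40 1446209_at 0.584 on replicate 3 (none above 0.00465) and Usp29 1419237_at 0.0434 on replicate 1 (none above 0.000258). Each probe set of Usp53 had 1 high array, 0.573 at 1444507_at on replicate 3, 0.479 at 1452385_at on replicate 1 and 0.485 at 1458899_at on replicate 2, where no other exceeded 0.05.

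On the other unchallenged E1 arrays, Usp36 1458311_at read 1.16 on replicate 2 (others -0.01 to 0.13), Usp24 1441018_at 0.96 on replicate 3 (none above 0.00184), Usp28 1433982_at -0.921 on replicate 1 (others 0.02 to 0.12), Usp3 1435531_at -1.12 on replicate 1 (others -0.50 to -0.49) and Usp15 1455842_x_at -0.659 on replicate 4 (others -1.12 to -1.09). Smaller gaps were at Usp20 1442943_at (0.423 on replicate 2), Usp42 1434782_at (0.382 on replicate 3), Usp31 1442099_at (0.238 on replicate 2), Usp30 1436009_at (0.0954 on replicate 4) and Usp40 1438242_at (0.00426 on replicate 4, others -0.17 to -0.16). Groups of 3 were not tested, nor was any cause.

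The EPO change differed between the stages at Usp22 1437151_at, by 0.74 (limma adjusted p 0.0477), and at Usp36 1456094_at, by -1.71 (limma adjusted p 0.0388), both by a test of the interaction. Neither passed with the replicate number as a block (0.218 and 0.114), and each lost its call in 12 of 14 fits that left out 1 array. Over gene means, the interaction of Usp22 did not pass (0.45, limma adjusted p 0.971) and that of Usp36 did (-1.34, limma adjusted p 0.0379).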

How the results depend on the processing

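Of the values with an alternative other than a left-out array, 536 kept their direction and their side of the threshold (or, for counts, stayed within 1.5 times), 94 no longer passed or lost over that much, 14 came to pass and 2 turned sign. Counts below are given as higher and lower.

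With the replicate number as a block, EPO gave 0 and 0 (E1) and 0 and 2 (E2), the interaction 0 and 0, and the stages 16 and 6 without EPO and 5 and 2 with it. Outside stage E1 the numbers were not taken to pair the arrays. Array weights gave 4 and 3 in E1, 0 and 2 for the interaction, 31 and 16 for the stages without EPO and 33 and 27 with it. Quantile normalization gave 3 and 2 for the interaction, and median centring 0 and 1. With the 22519 probe sets of larger SD there were 2 and 1 in E1, 9 and 5 in E2, and 0 and 1 for the interaction, where fewer probe sets share the adjustment. The joint fit gave 4 and 1 in E1 and 2 and 0 in E2. The methods' t-test, one-tailed, gave 14 and 11 in E1 and 15 and 21 in E2 unadjusted, and 2 and 0 and 5 and 4 after Benjamini-Hochberg. Unadjusted counts were not made over all probe sets. By gene means, E1 gave 2 and 2 genes (Usp12 and Usp36, Usp32 and Usp34) and the interaction 0 and 1. In E2, the means of Usp12, Usp14 and Usp9x did not pass (limma adjusted p 0.10, 0.0994 and 0.344). Those of Usp22, Usp31, Usp32, Usp36, Usp45 and Usp46 did, and Usp40 and Usp53 came to pass.

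Leaving out 1 array at a time, E1 gave 0 to 2 and 0 to 1, E2 3 to 6 and 1 to 2, the interaction 0 to 1 each, and the stages 19 to 28 and 8 to 11 without EPO and 16 to 26 and 10 to 20 with it. Usp12 1425805_a_at in E2 ran from -0.00729 (without EPO replicate 2) to 0.19, and the interaction of Usp12 1434483_at from -0.40 to 0.0307 (without unchallenged E1 replicate 2). Quantile normalization turned its interaction to 1.66 and its stage difference without EPO to -0.83, and that setting stretches the E2 arrays, whose SD over probe sets (0.259 to 0.295) is below that of the E1 arrays (0.633 to 0.736). Other causes were not tested. The shares called among probe sets naming 1 gene and among those not flat were added after seeing the data. Centred values leave low signals unknown, so flat probe sets limit what can be said of their genes.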
